A study of Rattus norvegicus with 47 samples.

Results

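The genes described here encode 7 proteins of the neutrophil, a granulocyte of the circulating blood. They are the granule genes Mmp8, Mmp9 and Ngp, the receptor genes Cxcr2 and Csf3r, the oxidase gene Ncf1 and the glycosyltransferase gene Fut4. A probe was taken when its symbol in the platform annotation was 1 of these names. Each gene had 1 probe, so 7 of the 13337 named genes on the array were described. All 7 passed the detection filter (detection p below 0.05 on at least 7 arrays), as did 6673 named genes and 9416 of 22523 probes.

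The data were Illumina bead array intensities of whole blood from adult Sprague Dawley rats, and each array was treated as 1 rat. Some rat numbers in the sample titles occur both among male controls and among exposed males. Whether these are the same rats is not stated, and the arrays were fitted as independent. Controls of each sex were not exposed to the stressor and went through the behavioural tests. The other rats were exposed to the scent of a predator, a rodent model of traumatic stress, and the submitters classed them as minimal or extreme responders by behaviour. The 6 groups were therefore female control (6 arrays used), female minimal, female extreme, male control, male minimal and male extreme (8 arrays in each of these 5). No allele or drug was named for any group. Blood of all groups was drawn into tubes that lyse the cells, and globin messenger RNA was depleted. The comparisons asked how exposure and the class of response related to blood expression. In lysed whole blood, fewer neutrophils and less messenger RNA per neutrophil cannot be told apart.

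Neutrophils are made in the bone marrow and carry their enzymes in granules that are filled at successive stages of maturation. Mmp8, the neutrophil collagenase, is stored in secondary granules, and Mmp9, a gelatinase, in tertiary granules. Ngp, neutrophilic granule protein, is known from mouse as a secondary granule protein of the cathelicidin-related family. Cxcr2 is the receptor for the CXC chemokines that draw neutrophils out of the marrow and toward inflamed tissue. Csf3r is the receptor for granulocyte colony-stimulating factor, which drives the making of neutrophils. Ncf1 is a cytosolic organiser subunit of the phagocyte NADPH oxidase, and is also used by monocytes and B cells. Fut4 is a fucosyltransferase that makes the Lewis x carbohydrate carried on myeloid cells. Glucocorticoid hormones and catecholamines released in stress are known to move neutrophils between the marrow, the vessel wall and the flowing blood.

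The probes of the array have no genome position in the sources used here, so position is given for the gene starts. RefSeq promoters (assembly GRCr8, 250 bases before to 50 bases after the gene start) were found for 6 of the 7 genes, all except Mmp9. The promoters of Mmp8, Cxcr2 and Fut4 are shown because these genes were higher together in exposed males, and that of Ncf1 because it was lower in the same rats. The sequences lie at chr8:13008640-13008939 on the plus strand for Mmp8, at chr9:83178395-83178694 on the plus strand for Cxcr2, at chr8:19872090-19872389 on the minus strand for Fut4 and at chr12:28121635-28121934 on the plus strand for Ncf1. Each is written 5′ to 3′ on the strand of its gene, and capitals mark the motif matches described after the sequences.
Mmp8: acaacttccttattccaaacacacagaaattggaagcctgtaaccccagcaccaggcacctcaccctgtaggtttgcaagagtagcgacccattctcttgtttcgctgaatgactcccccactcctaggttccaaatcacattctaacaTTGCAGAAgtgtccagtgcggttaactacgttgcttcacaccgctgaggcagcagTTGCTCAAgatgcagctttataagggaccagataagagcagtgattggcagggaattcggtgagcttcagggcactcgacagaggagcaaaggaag
Cxcr2: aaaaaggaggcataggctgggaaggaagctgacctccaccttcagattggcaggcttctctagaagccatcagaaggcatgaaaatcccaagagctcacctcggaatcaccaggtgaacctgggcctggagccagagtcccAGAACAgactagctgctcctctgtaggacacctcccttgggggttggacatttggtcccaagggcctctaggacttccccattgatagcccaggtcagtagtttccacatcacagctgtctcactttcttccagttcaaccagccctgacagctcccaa
Fut4: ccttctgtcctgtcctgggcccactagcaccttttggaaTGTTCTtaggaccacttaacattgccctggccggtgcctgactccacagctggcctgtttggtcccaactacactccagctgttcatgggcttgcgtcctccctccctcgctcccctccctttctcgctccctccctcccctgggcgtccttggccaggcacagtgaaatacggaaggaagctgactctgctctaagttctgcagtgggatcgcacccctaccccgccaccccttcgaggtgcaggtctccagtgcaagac
Ncf1: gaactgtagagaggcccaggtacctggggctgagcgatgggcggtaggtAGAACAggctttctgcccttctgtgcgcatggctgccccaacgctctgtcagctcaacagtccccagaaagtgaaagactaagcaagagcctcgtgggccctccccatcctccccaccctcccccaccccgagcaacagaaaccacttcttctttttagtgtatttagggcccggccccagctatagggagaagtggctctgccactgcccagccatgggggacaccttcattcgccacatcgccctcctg

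Both strands of each promoter were searched for 3 motifs. These were the C/EBP motif TTGCNNAA, the PU.1 core GAGGAA and the glucocorticoid response element half-site AGAACA. The Mmp8 promoter held the C/EBP motif at 2 places, whose first bases lie 101 and 46 bases before the start, and this motif occurred in 10.6% of the 33469 promoters of the same length. The Cxcr2, Ncf1 and Fut4 promoters each held 1 half-site, found in 20.7% of promoters, so the half-site was in promoters of genes that were higher and of a gene that was lower in exposed males. Of the promoters not printed, that of Ngp held the C/EBP motif at 2 places and that of Csf3r held 1 PU.1 core, which 27.6% of promoters have. The motifs do not overlap in these windows. A match is a run of letters and was not tested as a binding site.

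The array of female control replicate 2 carried no usable signal, with 4.95% of probes detected, and was dropped once its values were known. None of the 7 genes was detected on it. On the 46 arrays used, 5921 to 8770 probes were detected and the 95th percentile of raw intensity ran from 205 to 914. Female control replicates 1, 3, 4 and 5 stood apart from the other female arrays. Their platelet marker scores, the mean of the markers' log2 levels each centred over the arrays, were between −3.11 and −1.28, and their immediate early gene scores between 1.06 and 1.44. The other 2 female controls had platelet scores of 0.51 and 0.21, and the 16 exposed females ran from 0.05 to 1.11. Of the marker lists, 8 of 10 T cell, 4 of 7 B cell, 3 of 7 monocyte, 7 of 11 platelet and 6 of 8 erythroid genes passed the detection filter. Calls of the 7 genes that rest on female controls are therefore also given without these 4 arrays, which leaves 2 controls. Without them the number of probes called in exposed against control females went from 599 of 9416 to 1 of 9246. It went from 489 to 0 in minimal responders and from 505 to 7 in extreme responders, and from 3006 to 201 between male and female controls. The probes called for a sex difference went from 1072 to 0 for exposure, from 1010 to 1 for minimal responders and from 457 to 0 for extreme responders. The sex in the labels could not be separated from cohort or handling.

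All levels below are log2 of background-corrected, quantile-normalized intensity, and levels of different genes are not compared because probes differ in brightness. Ncf1 had the brightest probe and was detected on 46 of 46 arrays, as was Mmp9. Cxcr2 was detected on 43 arrays, Mmp8 on 42 and Csf3r on 35. Fut4 was detected on 27 and Ngp on 22, and most values of these 2 genes lay close to background. Ngp was detected on 1 array in each female group and on 7, 6 and 6 of 8 arrays in the male control, minimal and extreme groups, so it passed the filter through the male arrays. Fut4 was detected on 2 of 8 male controls and 2 of 8 females of extreme response, and on 7 of 8 arrays in each exposed male group. Near background a log2 difference is drawn toward 0.

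**Figure D1:**
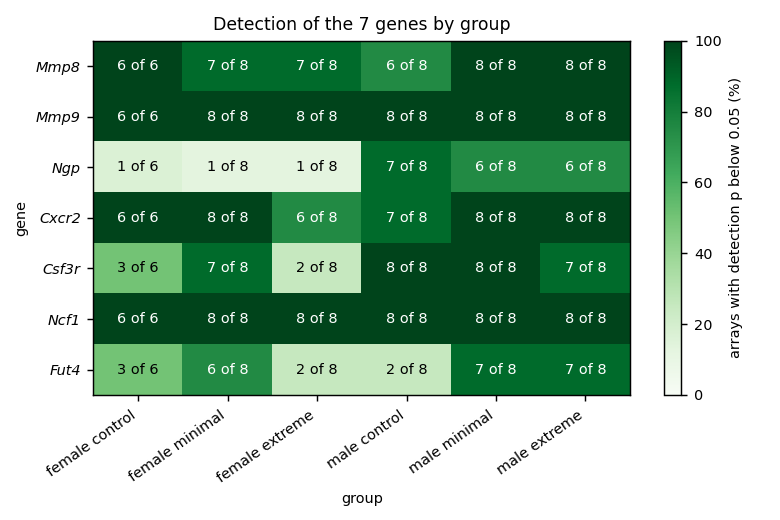
Number of arrays on which each of the 7 genes (rows) had a detection p below 0.05, by group (columns), with the share of arrays as colour from 0 to 100%. Mmp9 and Ncf1 were detected on all arrays of every group, whereas Ngp was detected on 1 array of each female group.

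Exposed males had higher Mmp8, Cxcr2 and Fut4 and lower Ncf1 than control males. For exposure, both response classes were averaged with equal weight. The differences were 1.5- to 1.7-fold upward for the former 3 genes, and Ncf1 stood at 0.734 of its control level. Mmp9, Ngp and Csf3r did not pass the test. In this comparison 4 of the 7 genes were called at an adjusted p below 0.05, against 11.2% of all tested probes (1055 of 9416), with 3 genes higher against 6.23% of probes and 1 lower against 4.97%. The 7 genes were chosen with earlier results of these data known, so these shares are a description and not a test of the set. The median difference over the 7 genes was 0.04 and over all probes −0.01. In minimal responders alone the same 4 genes were called, against 14.8% of probes (1396, 8.11% higher and 6.71% lower), and in extreme responders 0 of the 7 genes and 0% of probes passed.

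Mmp8 in males ran from 4.71 to 5.89 in controls (median 5.38), from 5.97 to 6.68 in minimal responders (median 6.30) and from 5.08 to 6.87 in extreme responders (median 5.92). Every male of minimal response was above every male control, while the extreme group overlapped both. The share of all probes whose groups do not overlap was not counted, here or in the comparisons below. The collagenase gene rose by 0.79 ± 0.20 (SE) over 16 exposed and 8 control males (adjusted p = 0.0082), and 14 of the 16 were above the mean of controls. In minimal responders alone it rose by 1.00 ± 0.23 (2.0-fold, adjusted p = 0.00267, higher in 8 of 8). In extreme responders the difference was 0.58 ± 0.23 and did not pass (adjusted p = 0.203, 6 of 8 above the control mean). Leaving out any 1 male array kept the call for exposure, whereas scaling to the 75th percentile in place of quantile normalization gave 0.72 with an adjusted p of 0.0527.

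Cxcr2 in males ran from 4.82 to 6.40 in controls (median 5.77), from 5.07 to 6.83 in minimal responders (median 6.60) and from 5.68 to 6.87 in extreme responders (median 6.40). The groups overlapped, and 7 of 8 males in each exposed group were above the control mean. The chemokine receptor gene rose by 0.59 ± 0.18 (1.5-fold, adjusted p = 0.0266) with exposure. It rose by 0.61 ± 0.21 in minimal responders (adjusted p = 0.0391), and in extreme responders the difference was 0.57 ± 0.21 (adjusted p = 0.165). The Cxcr2 call was close to the threshold. Without male control replicate 2 the difference for exposure was 0.45 (adjusted p = 0.107), without replicate 3 it was 0.56 (0.0547) and without replicate 8 it was 0.56 (0.0527), so these 3 arrays each decided the call. With 75th percentile scaling the Cxcr2 difference was 0.54 (adjusted p = 0.0819), and with males fitted by themselves it was 0.60 (0.0556). The call for minimal responders held in 5 of the 16 fits that left out 1 array, with a lowest difference of 0.47 and a highest adjusted p of 0.122.

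Fut4 in males ran from 4.41 to 5.12 in controls (median 4.54), from 4.87 to 5.89 in minimal responders (median 5.43) and from 4.81 to 5.94 in extreme responders (median 5.29). All 16 exposed males were above the control mean, and the ranges overlapped through the highest controls. The fucosyltransferase gene rose by 0.68 ± 0.12 with exposure (1.6-fold, adjusted p = 0.000686). Its probe was detected on only 2 of 8 male controls, so the control level in this difference is mostly background. It rose by 0.69 ± 0.14 in minimal responders (adjusted p = 0.00102), and the difference in extreme responders was as large, at 0.68 ± 0.14. The extreme difference did not pass (adjusted p = 0.0621), in a comparison where 0 of 9416 probes passed limma's test and 1437 had an unadjusted p below 0.05. Fut4 passed there without male control replicate 6, 7 or 8 or without male extreme replicate 1, 2 or 8, with adjusted p-values from 0.00776 to 0.0427. The rise with exposure held in every fit that left out 1 male array and in all 11 alternatives. On the deposited log2 values, which have no background subtraction, it was 0.27.

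Ncf1 in males ran from 10.14 to 10.76 in controls (median 10.38), from 9.42 to 10.18 in minimal responders (median 9.84) and from 9.51 to 10.59 in extreme responders (median 10.21). The male minimal range met the control range only at its upper end. The oxidase gene fell by 0.45 ± 0.13 with exposure (adjusted p = 0.0206, lower in 14 of 16) and by 0.61 ± 0.15 in minimal responders (adjusted p = 0.00461, lower in 8 of 8). In extreme responders the difference was −0.28 ± 0.15 (adjusted p = 0.375). Without male control replicate 8 the difference with exposure was −0.40 (adjusted p = 0.0574), and with 75th percentile scaling it was −0.50 with an adjusted p of 0.167.

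**Figure D2:**
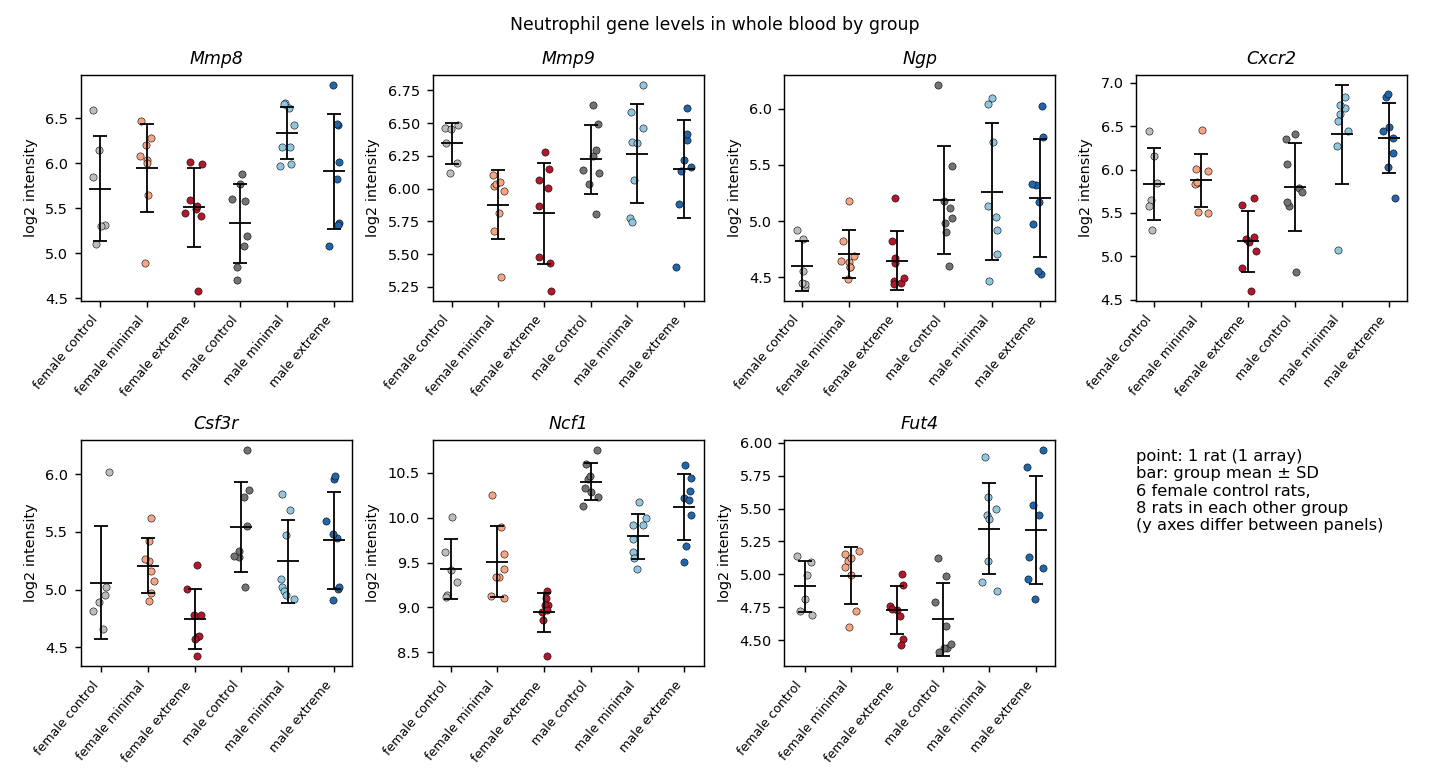
Log2 intensity (y axis, own scale in each panel) of the 7 genes in each rat, by group (x axis), with the group mean and SD as bars. Mmp8, Cxcr2 and Fut4 sat higher in exposed than in control males, Ncf1 sat highest in male controls, and Mmp9 was tightly grouped between 6.12 and 6.48 in female controls.

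The other 3 genes did not pass in exposed males. Mmp9 ran from 5.81 to 6.64 in male controls and from 5.40 to 6.79 in exposed males, and its difference with exposure was −0.01 ± 0.14 (95% interval −0.29 to 0.26). Ngp ran from 4.60 to 6.21 in male controls and from 4.46 to 6.10 in exposed males, with a difference of 0.04 ± 0.18 (interval −0.31 to 0.40). Csf3r ran from 5.03 to 6.21 in controls and from 4.91 to 5.99 in exposed males, with a difference of −0.21 ± 0.15 (adjusted p = 0.425). None of these intervals reached a 2-fold change. When the array without signal was kept, the Fut4 rise with exposure still passed (adjusted p = 0.00721), while Mmp8 (0.0528), Cxcr2 (0.116) and Ncf1 (0.284) did not.

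The marker lists of other blood cells gave few calls in the exposed males. No gene of 7 tested platelet markers, 8 immediate early genes, 3 monocyte markers, 4 B cell markers or 5 NK and cytotoxic markers passed. Cd8a, a T cell coreceptor subunit, rose by 0.39 ± 0.13 as the 1 call among 8 T cell markers, whose median difference was −0.16. Slc4a1, the red cell anion exchanger, rose by 0.75 ± 0.23 as the 1 call among 6 erythroid markers, whose median was 0.13. In minimal responders the B cell kinase gene Blk fell by 0.44 ± 0.16, as 1 of 4 B cell markers, in the same comparison in which Ncf1 fell. The mean B cell score ran from 0.15 to 0.60 in male controls and from −0.23 to 0.63 in minimal responders. Its part in the Ncf1 result was not tested.

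In females Mmp9 fell with exposure, by 0.50 ± 0.15, and the other 6 genes did not pass. This 1 call of 7 stood beside 6.36% of all probes called in that comparison (599 of 9416, with 2.09% lower). With the 4 controls that stood apart left out, 1 of 9246 probes was called, and it was not that of Mmp9. The median difference was −0.08 over the 7 genes and −0.01 over all probes. Mmp9 ran from 6.12 to 6.48 in female controls (median 6.41), from 5.33 to 6.11 in minimal responders (median 6.00) and from 5.22 to 6.28 in extreme responders (median 5.94). All 16 exposed females were below the control mean, and no female of minimal response reached the lowest control. How many of all probes separated these groups was not counted. The gelatinase gene stood at 0.707 of its control level (adjusted p = 0.0332, n = 16 and 6).

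This call was fragile. It was lost without female control replicate 1 (−0.48, adjusted p = 0.0834), replicate 3 (−0.48, 0.0901) or replicate 6 (−0.48, 0.0642), without female minimal replicate 1 (−0.46, 0.0523), and without female extreme replicate 5 (−0.46, 0.0514) or 6 (−0.48, 0.0503). With array brightness as a covariate the Mmp9 difference was −0.38 (adjusted p = 0.158), and with scaling to the 75th percentile it was −0.30 (adjusted p = 0.206). Without the 4 female controls that stood apart it was −0.57 ± 0.25 (adjusted p = 0.82), in a fit with 2 controls. The part of these 4 arrays in the Mmp9 difference was not tested. The 4 controls had Mmp9 levels of 6.48, 6.46, 6.20 and 6.12, and the other 2 had 6.46 and 6.35.

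**Figure D3:**
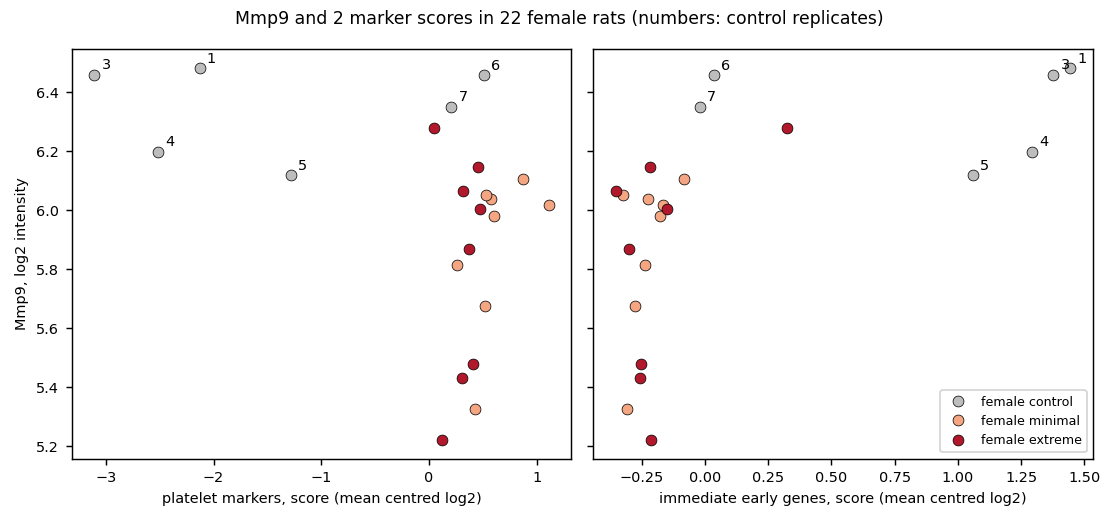
Mmp9 log2 intensity (y axis) against the platelet marker score (left) and the immediate early gene score (right) in 22 female rats, coloured by group, with female controls numbered by replicate. Controls 6 and 7 lay within the range of exposed females on the platelet score and above all of them in Mmp9. On the immediate early score the lowest control, at −0.02, was above every female of minimal response (highest −0.08). Females of extreme response ran from −0.35 to 0.32 on that score.

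In the same female comparison 7 of 7 tested platelet markers rose, with a median difference of 1.88, and 4 of 8 immediate early genes fell. Cd14, a monocyte receptor, fell by 0.68 ± 0.21 as 1 of 3 monocyte markers, whose median was 0.01. Of 5 NK and cytotoxic markers, whose median was 0.17, Klrd1, a cytotoxic cell receptor, fell by 0.94 ± 0.17 and Ctsw, a cathepsin of cytotoxic cells, rose by 0.47 ± 0.14. Without the 4 controls that stood apart none of the 18 calls that these and the other gene lists gave in exposed females passed (lowest adjusted p = 0.762), and 14 of the 18 kept their sign. The platelet score of female controls ran from −3.11 to 0.51 and their immediate early score from −0.02 to 1.44. Controls 6 and 7 had the highest platelet and the lowest immediate early scores among the controls, and their Mmp9 levels were above those of every exposed female. Their immediate early scores were still above those of every female of minimal response.

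Cxcr2 differed by −0.31 ± 0.20 and Ncf1 by −0.20 ± 0.14 in exposed females, and neither passed (adjusted p = 0.405 and 0.465). Mmp8, Csf3r, Fut4 and Ngp did not pass either. Mmp8 ran from 5.10 to 6.59 in female controls and from 4.59 to 6.47 in exposed females, with a difference of 0.01 ± 0.22 (95% interval −0.43 to 0.46). Csf3r ran from 4.66 to 6.02 in controls and from 4.43 to 5.62 in exposed females, with a difference of −0.08 ± 0.17 (interval −0.42 to 0.26). Control and exposed females overlapped for both genes. Fut4 ran from 4.69 to 5.14 in controls and from 4.46 to 5.18 in exposed females (−0.05 ± 0.14, interval −0.33 to 0.23). Ngp, near background, ran from 4.41 to 4.92 in controls and from 4.44 to 5.20 in exposed females (0.07 ± 0.20, interval −0.32 to 0.47).

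Taken by response class, no gene of the 7 passed in females. In minimal responders 5.19% of probes were called and Mmp9 had a difference of −0.47 ± 0.17 (adjusted p = 0.106). It was the 1 gene of the 7 with an unadjusted p below 0.05 in limma's test, as 17.4% of all probes had. In extreme responders 5.36% of probes were called. An unadjusted p below 0.05 was found for 3 of the 7 genes and for 18.7% of all probes. These were Mmp9 (−0.53 ± 0.17, adjusted p = 0.0537), Cxcr2 (−0.66 ± 0.22, adjusted p = 0.0739) and Ncf1 (−0.48 ± 0.16, adjusted p = 0.0705). All 8 females of extreme response were below the control mean for each of these 3 genes, and each range overlapped that of the controls. Mmp9 passed there without female extreme replicate 1, 3 or 4 (lowest adjusted p = 0.0295), and Cxcr2 without female control replicate 4 (adjusted p = 0.0499).

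Cxcr2 in females ran from 5.31 to 6.45 in controls (median 5.75), from 5.50 to 6.46 in minimal responders (median 5.85) and from 4.60 to 5.67 in extreme responders (median 5.18). Females of extreme response had the lowest Cxcr2 levels of the 6 groups. Ncf1 in females ran from 9.11 to 10.00 in controls (median 9.35), from 9.10 to 10.25 in minimal responders (median 9.39) and from 8.46 to 9.18 in extreme responders (median 9.00). The extreme group was again the lowest. The Ncf1 difference between extreme and control females was −0.12 when all 47 arrays were kept, −0.16 with scaling to the 75th percentile and −0.87 without the 4 controls, so its size depended on the setting.

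The comparison of extreme with minimal responders asked about individual differences among exposed rats. In females 0.34% of probes (32 of 9416) were called, and 0 of the 7 genes passed limma's test. An unadjusted p below 0.05 was found for 3 of the 7 genes and for 12.3% of all probes. Ncf1 differed by −0.57 ± 0.15 (adjusted p = 0.0755), Cxcr2 by −0.70 ± 0.21 (adjusted p = 0.12) and Csf3r by −0.46 ± 0.18 (adjusted p = 0.249). Each was below the mean of the minimal group in 7 or 8 of 8 extreme females. Cd14 was higher in the extreme group by 1.11 ± 0.22, as the 1 monocyte marker of 3 that passed. The monocyte score averages these 3 genes, Cd14 included, and ran from −0.15 to 0.57 in extreme and from −0.35 to −0.02 in minimal responders. A score without Cd14 was not computed, so this range does not show a shift of the whole list. Ncf1 passed with array weights (adjusted p = 0.0369) and without the 4 female controls (adjusted p = 0.0496).

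In males 0.138% of probes (13 of 9416) were called between the response classes and 0 of the 7 genes passed limma's test. Ncf1 had the only unadjusted p below 0.05 among the 7, where 12.6% of all probes had one, with a difference of 0.33 ± 0.15 (adjusted p = 0.348, 6 of 8 extreme males above the minimal mean). The Cxcr2 difference was −0.04 ± 0.21 and that of Fut4 −0.01 ± 0.14. The Mmp8 difference was −0.43 ± 0.23 in males and −0.44 ± 0.23 in females, and neither passed (adjusted p = 0.457 and 0.439).

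**Figure D4:**
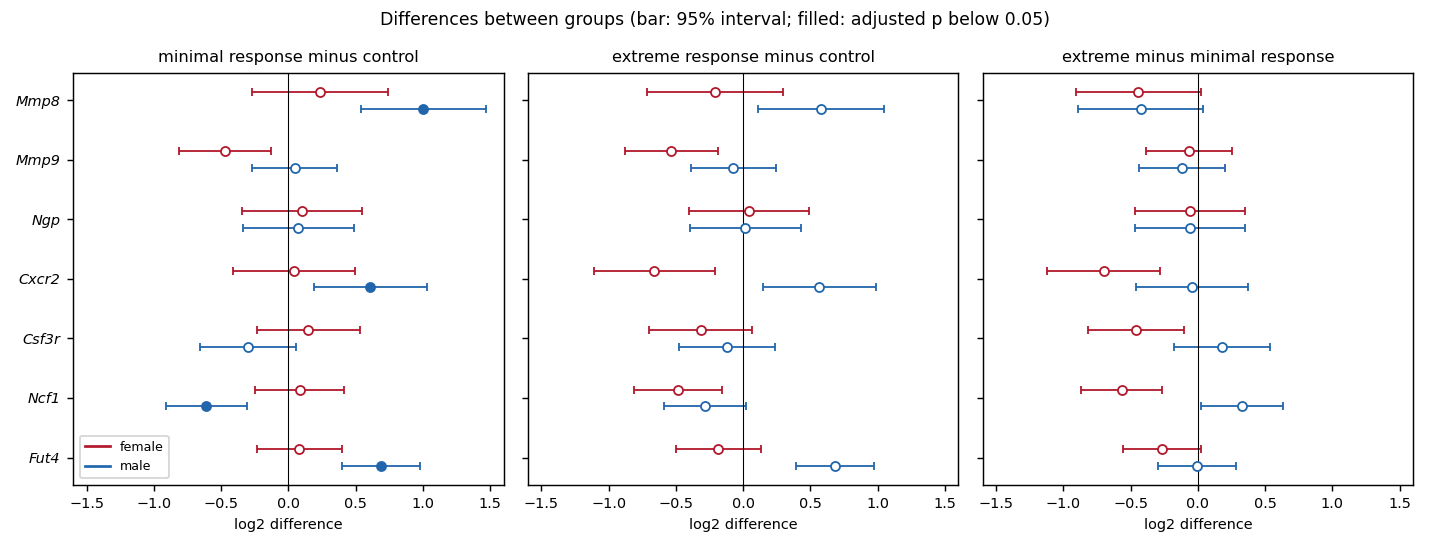
Log2 difference with its 95% interval (x axis) for each of the 7 genes (y axis) in females (red) and males (blue), for minimal responders against control, extreme responders against control and extreme against minimal responders. Filled points passed at an adjusted p below 0.05, and these were Mmp8, Cxcr2, Ncf1 and Fut4 in males of minimal response.

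Whether the difference with exposure was the same in both sexes was tested as the male difference minus the female difference. For exposure 11.4% of probes (1072) were called, with 2 of the 7 genes among them. Cxcr2 had a male minus female value of 0.90 ± 0.27 (adjusted p = 0.0226), formed by 0.59 in males and −0.31 in females. Fut4 had a value of 0.74 ± 0.19 (adjusted p = 0.00708), formed by 0.68 in males and −0.05 in females. Without female control replicate 1 the Cxcr2 value was 0.78 (adjusted p = 0.0692) and without replicate 3 it was 0.83 (0.0541). With all 47 arrays (0.71, adjusted p = 0.128), 75th percentile scaling (0.62, 0.146) or no detection filter (0.90, 0.0563) Cxcr2 did not pass. Without the 4 female controls neither gene passed, with a Cxcr2 value of 0.70 ± 0.36 and a Fut4 value of 0.92 ± 0.26 (adjusted p = 0.522 and 0.225).

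For extreme responders 4.85% of probes were called. Cxcr2 had a male minus female value of 1.23 ± 0.31 (adjusted p = 0.014) and Fut4 one of 0.86 ± 0.21 (adjusted p = 0.0125). Both calls held in the 30 fits that left out 1 array. Neither held without the 4 female controls, where the Cxcr2 value was 1.04 and that of Fut4 1.05 (adjusted p = 0.458 and 0.179). Cxcr2 was also lost with all 47 arrays (1.03, adjusted p = 0.094), and with 75th percentile scaling both were lost, at 0.93 for Cxcr2 and 0.74 for Fut4 (adjusted p = 0.15 and 0.0529). For minimal responders 10.7% of probes were called and Ncf1 was the 1 gene that passed, at −0.69 ± 0.22 (adjusted p = 0.0355). Ncf1 lost this call in 10 of 30 fits that left out 1 array, with values from −0.81 to −0.59 and a highest adjusted p of 0.0744. The 10 arrays were female control replicates 1, 3 and 4, female minimal replicates 6 and 8, male control replicates 5 and 8, and male minimal replicates 2, 3 and 6. It was also lost with all 47 arrays (−1.05, adjusted p = 0.0573), no detection filter (−0.69, 0.0731), the replicate block (−0.67, 0.0568) and array brightness as covariate (−0.62, 0.081). Without the 4 female controls the Ncf1 value was −0.31 ± 0.28 (adjusted p = 0.701). The difference between the sexes in extreme against minimal responders gave 0.0319% of probes (3) and 0 of the 7 genes by limma, with Ncf1, Csf3r and Cxcr2 at an unadjusted p below 0.05, as were 8.15% of all probes. The Ncf1 value was 0.89 ± 0.21 (adjusted p = 0.136).

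The level of Ncf1 in males was above that in females in controls and in extreme responders. In controls the male minus female difference was 0.98 ± 0.16 (adjusted p = 1.37e-05), with no overlap between the groups, in a comparison that called 31.9% of probes. In extreme responders it was 1.18 ± 0.15 (2.3-fold, adjusted p = 6.77e-07), again with no overlap, where 10.8% of probes were called. The share of probes without overlap was not counted for either comparison. In minimal responders the Ncf1 difference was 0.28 ± 0.15 and did not pass (adjusted p = 0.289), where 7.72% of probes were called and 0 of the 7 genes passed. Without the 4 female controls the control difference was 0.59 ± 0.23 (adjusted p = 0.158). The B cell score also differed between the sexes, running from −0.55 to −0.09 in female controls and from 0.15 to 0.60 in male controls. Its part in the Ncf1 difference was not tested.

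Csf3r was also called between male and female controls, at 0.48 ± 0.19 (adjusted p = 0.0468). The Csf3r call was lost in 9 of 14 fits that left out 1 array, which were those without female control replicates 1, 4, 5, 6 and 7 and male control replicates 1, 6, 7 and 8, with values from 0.39 to 0.68. It passed in 2 of 10 alternatives, which gave 0.17 to 0.58, and without the 4 female controls that stood apart it was 0.57 ± 0.27 (adjusted p = 0.234). Ngp passed the detection filter through the male arrays, so its level in male controls above that in female controls, by 0.59 ± 0.22, is given as a description and not as a call. That Ngp difference ran from 0.24 to 0.64 over 9 alternatives and was 0.32 ± 0.34 without the 4 female controls. In extreme responders Cxcr2 was higher in males by 1.19 ± 0.21 with no overlap (adjusted p = 0.000113), Csf3r by 0.68 ± 0.18 (adjusted p = 0.00807) and Fut4 by 0.61 ± 0.14 (adjusted p = 0.00343). These 3 calls held in all 16 fits that left out 1 array and in all 10 alternatives run for them. Csf3r and Fut4 were each detected on only 2 of 8 females of extreme response, so most of those female values were undetected.

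Ordered by group mean, Cxcr2 was highest in male minimal (6.41) and male extreme (6.36) and lowest in female extreme (5.17). The gaps above 1 SD of the more variable neighbour were those below male extreme and above female extreme. For Ncf1 the order ran from male control (10.40) to female extreme (8.94), and the gap above female extreme was the 1 step larger than the SD. Mmp8 ran from male minimal (6.34) to male control (5.33) and Fut4 from male minimal (5.35) to male control (4.66), and no step between neighbours exceeded the SD for either gene. Csf3r ran from male control (5.54) to female extreme (4.75), also without such a step. Ngp fell into male means of 5.19 to 5.26 and female means of 4.60 to 4.70, with the step between them at 1.0 SD. Mmp9 ran from female control (6.35) to female extreme (5.81), with no step above the SD.

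Other genes of the same pathways gave scattered calls. In exposed males 2 of 6 further NADPH oxidase genes rose and none fell, while Ncf1 fell. They were Cybb, the catalytic subunit of the oxidase, by 0.53 ± 0.17 (adjusted p = 0.0295), and Rac1, a small GTPase of the oxidase complex and of many other processes, by 0.32 ± 0.11 (adjusted p = 0.0442). Cyba, the partner of Cybb in the membrane, differed by −0.07 ± 0.13 and Ncf4, another cytosolic subunit, by −0.15 ± 0.17. The list's median difference was 0.10 against −0.01 over all probes. In females Rac1 rose by 0.47 ± 0.12 with exposure (adjusted p = 0.00842), as 1 of the same 6 genes, and without the 4 controls that stood apart it differed by −0.06 ± 0.15 (adjusted p = 0.994).

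The lists named primary and secondary granule gave no call with exposure. Of the primary granule genes 4 of 6 were tested, and 0 passed in limma's test of exposure in either sex, none with an unadjusted p below 0.05. Examples in males were Mpo, myeloperoxidase, at 0.18 ± 0.24 and Prtn3, proteinase 3, at 0.04 ± 0.16. Of the secondary granule genes 4 of 7 were tested and 0 passed with exposure, again none with an unadjusted p below 0.05. Lcn2, an iron-siderophore binding protein, had 0.53 ± 0.38 in females and −0.13 ± 0.34 in males. Pglyrp1, a peptidoglycan recognition protein, fell by 0.54 ± 0.19 in males of minimal response (adjusted p = 0.0496), where its list gave 1 call. Cfp, the complement factor properdin, was placed in the list of secretory vesicle and surface genes, of which 4 were tested. It fell by 0.51 ± 0.15 in exposed males (adjusted p = 0.0225). S100a8, a calprotectin subunit, differed by −0.49 ± 0.22 in exposed females and 0.20 ± 0.20 in exposed males, and neither passed.

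Of 9 tested signalling genes of the Cxcr2 and Csf3r pathways 3 rose in exposed males. These were Gnai3, an inhibitory G protein subunit, by 0.98 ± 0.20 (adjusted p = 0.00159), Jak1 by 0.63 ± 0.14 (0.00421) and Jak2 by 0.40 ± 0.14 (0.047), which are cytokine receptor kinases. The list's median was 0.00 in that comparison and −0.03 in exposed females, where Stat3, the transcription factor downstream of the Csf3r kinases, fell by 0.56 ± 0.16. The Stat3 difference was −0.15 ± 0.24 without the 4 controls that stood apart (adjusted p = 0.994). Of 5 tested granulocyte transcription factors, Gfi1, a repressor needed for neutrophil maturation in mouse, rose by 0.64 ± 0.15 in exposed males (adjusted p = 0.00557). Cebpb, which drives emergency granulopoiesis in mouse, fell by 1.56 ± 0.21 in exposed females and rose by 0.82 ± 0.22 in males of minimal response. The Cebpb difference in females was −0.74 ± 0.30 without the 4 controls and did not pass (adjusted p = 0.762). Of the Cxcr2 ligands 2 were tested, and Ppbp, a chemokine precursor stored in platelets, rose by 1.86 ± 0.32 in exposed females, where the platelet markers rose too, and differed by 0.14 ± 0.38 without the 4 controls (adjusted p = 0.994). Tnfrsf1a, a tumour necrosis factor receptor, fell by 0.80 ± 0.20 in females of extreme response, as 1 of 5 tested receptor genes, and by 1.30 ± 0.27 without the 4 controls (adjusted p = 0.0367).

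No gene of the remaining lists passed with exposure. Of 5 tested metalloproteinase and inhibitor genes, Timp1, an inhibitor of Mmp9, differed by 0.13 ± 0.18 in females and −0.19 ± 0.16 in males. Of 6 tested genes of selectin ligand glycosylation, Fut7, the other leukocyte fucosyltransferase of this pathway, differed by 0.03 ± 0.16 in females and −0.01 ± 0.14 in males. B4galt1, a galactosyltransferase, had the smallest p of this list, with 0.42 ± 0.15 in females and 0.32 ± 0.13 in males (adjusted p = 0.078 and 0.114). St3gal4, a sialyltransferase, fell by 0.46 ± 0.14 in females of extreme response, and without the 4 controls differed by −0.63 ± 0.19 (adjusted p = 0.25). The list of metalloproteinases had 12 members on the array, and 7 of them were not detected often enough to be tested.

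The measured levels of the 7 genes did not vary as a single block among rats of the same group. Of 21 pairs, 2 passed a permutation test of the deviations from the group means over 46 arrays, with 100000 permutations within groups and Benjamini-Hochberg adjustment over the pairs. Mmp8 and Cxcr2 had a Pearson r of 0.53 and a Spearman rho of 0.50 (permutation p = 0.00011 and 0.001, adjusted p = 0.00231 and 0.0105). The r was 0.51 without the 2 arrays farthest from the median Mmp8 deviation, 0.46 in females and 0.59 in males. Mmp9 and Ngp had an r of 0.52 and a rho of 0.54 (permutation p = 0.00115 and 0.00047, adjusted p = 0.0121 and 0.00987). That r was 0.48 without 2 arrays, and it was 0.07 in 22 females and 0.70 in 24 males. Ngp was near background in females. Ngp, Fut4 and Csf3r were detected on 22, 27 and 35 of 46 arrays, and noise near background draws r toward 0 in their pairs. The remaining 19 pairs had r between −0.26 and 0.29.

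**Figure D5:**
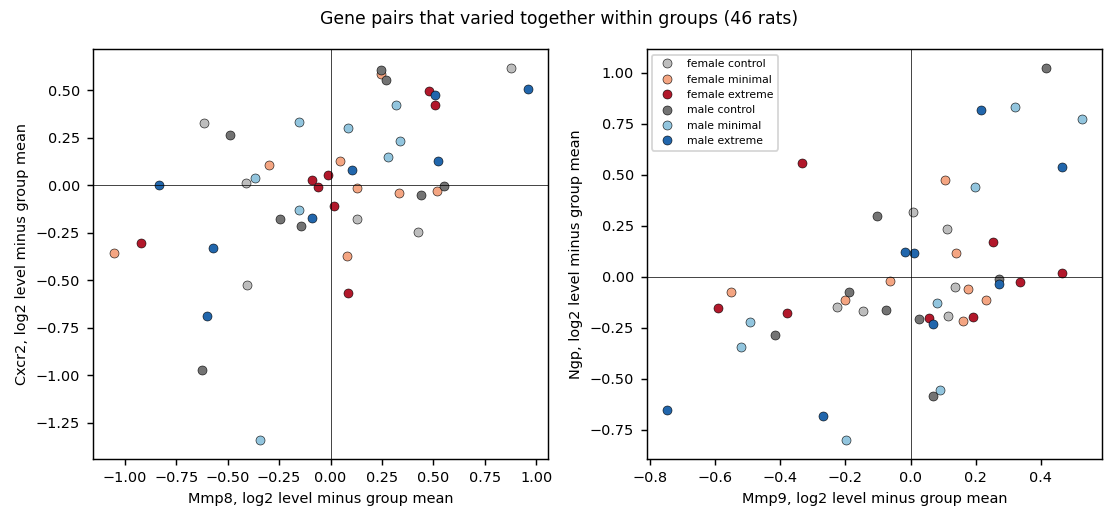
Deviation of each rat from its group mean (log2) for Cxcr2 against Mmp8 (left) and for Ngp against Mmp9 (right), coloured by group. Mmp8 and Cxcr2 varied together in both sexes (r 0.46 and 0.59), while Mmp9 and Ngp had an r of 0.70 in males and 0.07 in females, a difference that was not tested.

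The genes whose within-group variation was most like that of each member, over the 46 arrays and the tested probes, are given as a description. Ncf1 had the closest, which were Cd74, the MHC class II invariant chain, and S100a11, each with an r of 0.82, and Napsa, an aspartic protease, with 0.79. Ngp was closest to Lcn2 (0.57), Prg3 (0.55), an eosinophil granule protein gene, and Pglyrp1 (0.54), of which Lcn2 and Pglyrp1 are secondary granule genes. Cxcr2 was closest to Alox5ap (0.57), which encodes the activating protein of leukotriene synthesis, Nudt4 (0.54) and the cytokine gene Il1b (0.53). Csf3r was closest to Spag7 (0.56), Fut7 (0.52) and Pcdh9 (0.52). Mmp9 was closest to Lypd8l1 (0.65), Sprr1a (0.60) and Cfd (0.60), the gene of complement factor D. Mmp8 was closest to Pias2 (0.61), Sav1 (0.60) and Alg6 (0.59), and Fut4 to Tlnrd1 (0.68), Aldh3a2 (0.65) and Snx14 (0.65).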

How the data were processed

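Illumina bead arrays of whole blood were used, 47 in all, each treated as 1 rat. The authors deposited a non-normalized intensity and a detection p-value for each probe and array, per the file headers. A log2 table was deposited too, which recomputation showed to be quantile-normalized log2 intensities without background correction (largest gap 5e-09). The sources used here give no scanner settings. Symbols came from the platform annotation, in which 13793 probes had 1 symbol and 8730 had none. Of the symbols, 13752 matched RefSeq by Entrez identifier.

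Intensities of 46 arrays were corrected with limma's neqc (version 3.58.1, R 4.3.3, negative control levels derived from detection p-values, offset 16, quantile normalization). Probes with a detection p below 0.05 on at least 7 arrays were tested. Female control replicate 2 was left out because earlier results of these data showed no signal on it, and the fit of all 47 arrays is an alternative. The deposited log2 table has no column for that array. A model of 6 group means was fitted with lmFit and eBayes (40 residual degrees of freedom), with two-sided p-values adjusted by Benjamini-Hochberg over 9416 probes and called at 0.05. Errors are standard errors. The number of arrays limits the precision. The script was tested on simulated data.

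Alternatives changed the arrays, background offset, scaling, filter, weights, model and covariates, and left out arrays singly. Replicate numbers are the order of arrays within a group and do not pair the samples. Pairing by the rat numbers that recur in the male titles was not tested. The members and lists were chosen with earlier results of these data known. Named genes were all 7 members, list genes that passed (or else up to 2 with the smallest p), and for each member the 3 genes of highest within-group correlation. From these a smaller number is printed.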

Additional observations from a re-analysis of the deposited data

Results flagged for a closer look

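Single arrays stood far from the rest of their group for 4 of the 42 sets of values looked at (7 genes in 6 groups), and chance gives such an array in about 1 of 20 sets. Mmp8 was lowest in female extreme replicate 1, at 4.59. Cxcr2 was lowest in male minimal replicate 8, at 5.07. Csf3r was highest in female control replicate 3, at 6.02, and that array is 1 of the 4 female controls that stood apart. Ncf1 was lowest in female extreme replicate 6, at 8.46.

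The difference with exposure was itself different between the sexes for 3 genes by limma's interaction test. For all exposed rats, the male minus female value was 0.90 for Cxcr2 and 0.74 for Fut4. For minimal responders it was −0.69 for Ncf1. For extreme responders it was 1.23 for Cxcr2 and 0.86 for Fut4. None of these 5 passed without female control replicates 1, 3, 4 and 5.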

How the results depend on the processing

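The differences of the 7 genes were compared with the main fit 1091 times under an alternative and 2254 times with 1 array left out. No difference that passed in either of the 2 fits compared changed sign. Differences that passed in neither were not scored for sign. Some of these did change it, as Ncf1 in females of minimal response (−0.30 to 0.60 over the alternatives). The number of the 7 genes called did change. With all 47 arrays it went from 0 to 1 in female minimal and female extreme responders, where probes called of 9416 went from 489 to 442 and from 505 to 412. It went from 4 to 1 in exposed males (probes from 1055 to 119) and from 4 to 2 in males of minimal response (1396 to 317). In the sex differences it went from 2 to 1 for exposure (1072 to 543) and the extreme class (457 to 130), and from 1 to 0 for the minimal class (1010 to 420). With 75th percentile scaling it went from 1 to 0 in exposed females, from 4 to 1 in exposed males, from 2 to 1, 1 to 2 and 2 to 0 in the sex differences of exposure, minimal and extreme class. That scaling called 514 probes higher and 48 lower in exposed females, against 402 and 197, and 115 and 52 in exposed males, against 587 and 468. In those sex differences it called 499, 1023 and 54 of 9416 probes, against 1072, 1010 and 457. With all 47 arrays the median of all probes in the female comparisons moved by 0.11 to 0.12. Without the detection filter the count was 0 in exposed females and 1 and 0 in the sex differences of exposure and the minimal class. All probes called there were 504, 717 and 670 of 22523. With a filter of 23 arrays it was 1 in females of extreme response and 2 in the sex difference of the minimal class, which the deposited log2 values also gave as 2. That filter called 525 and 1068 of 6815 probes in these comparisons, and the deposited values called 1012 of 9416 in the latter. The deposited values made differences smaller, for example 0.40 against 1.00 for Mmp8 in males of minimal response. Array weights gave 1 in extreme against minimal females, 1 in males of extreme response and 1 in the sex difference of extreme against minimal. The probes called there were 96, 149 and 12 of 9416, against 32, 0 and 3. Fitting each sex by itself gave 1 in females of extreme response, with 415 of 9416 probes called. Array brightness as covariate gave 0 in exposed females, 2 in females of extreme response and 1 in males of extreme response. It called 516, 561 and 16 of 9416 probes there. Without the 4 female controls the count was 0 in exposed females, 1 in extreme against minimal females and 1 in males of extreme response (22 of 9246 probes called). It was 0 in the sex differences of exposure, minimal and extreme class. In the comparisons of males with females it was 4 against 7, and the 7 included Ngp, which passed the filter through the male arrays. The probes called in these comparisons went from 3006 to 201 in controls, from 727 to 856 in minimal and from 1014 to 1125 in extreme responders. In that setting the probes called went from 599 to 1 in exposed females, from 489 to 0 and from 505 to 7 in the 2 response classes, from 32 to 75 in extreme against minimal females, and from 1072 to 0, 1010 to 1 and 457 to 0 in the sex differences.

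With 1 array left out, the count ran from 0 to 1 in exposed females, females of extreme response, males of extreme response and the sex difference of extreme against minimal. It ran from 2 to 4 in exposed males and from 3 to 4 in males of minimal response. In the sex differences of exposure and minimal class it ran from 1 to 3 and from 0 to 2. Between the sexes it ran from 5 to 9, which takes in Ngp wherever its probe passed. The shares of all probes called were not counted for these fits. The replicate block gave 1 in females of extreme response and 0 in the sex difference of the minimal class. The same replicate number in different groups had a median correlation of −0.02 over 110 pairs of arrays. Replicate numbers are the order of arrays within a group, so this cannot show whether male arrays with the same rat number are paired. The causes of the changes in count were not tested. Ngp, Fut4 and Csf3r are limited by signal near background.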
